A study of Mus musculus with 3 samples.

Results

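The 36 genes described here encode components of the vascular basement membrane, matricellular proteins that sit in or on it, and receptors that anchor cells to it. They were listed by symbol, and all 36 were found once each among the 32285 genes of the count matrices. Their transcripts were counted in single cells of mouse retina enriched for CD31, a surface protein of endothelial cells, from C57BL/6JRj mice. The mice, with no treatment or engineered allele given in the labels, were 3 months (young), 12 months (adult) or 23 months old (old). At each age the retinas of 2 mice were pooled into 1 library, and there are 3 libraries in all. The enrichment was partial, and mural cells, glia and neurons stayed in the suspension. The comparisons address which cell class carries the transcripts of each component and whether the levels differ between ages.

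A basement membrane is a thin protein sheet that surrounds the endothelial tube and in which pericytes are embedded, and Müller glia face a similar sheet at the inner surface of the retina. Its laminins are trimers of an alpha, a beta and a gamma chain, its type IV collagen is a trimer of alpha chains, and nidogens and the heparan sulfate proteoglycan perlecan link these networks. Cells hold on to the sheet through integrins and dystroglycan.

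Cells were assigned to 7 classes from marker genes that included none of the 36. The endothelial class held 409 to 441 cells per library, the pericytes 102 to 170, the smooth muscle cells 36 to 38, the Müller glia 182 to 212, the rods 166 to 322, the cones 70 to 103 and the bipolar cells 164 to 199. All 10 endothelial, all 8 pericyte, all 8 Müller glia and 7 of 8 smooth muscle markers were met in the clusters of those names, and 3 to 7 of 9 bipolar markers. Counts of unique molecular identifiers (UMIs) were summed per class and library and given per 1000000 UMIs of that sum (CPM). The sums ranged from 307598 UMIs in young smooth muscle cells to 3645016 in old endothelial cells. The young and adult libraries shared 1 cell barcode, the adult and old libraries 3, and the young and old libraries 0. Marker transcripts of each class also appeared in others. Summed endothelial markers stood in the pericyte class at 7.78, 7.18 and 9.06% of their endothelial level (in age order, as are all values given in threes), and pericyte markers in the endothelial class at 5.69, 6.16 and 3.69% of their pericyte level. A member at or under these shares in all 3 libraries is described below as not above carry-over. Between the mural classes the shares were larger, with pericyte markers in smooth muscle cells at 26.3, 27.0 and 13.8% and smooth muscle markers in pericytes at 11.8, 16 and 13.6%, and rod markers stood in cones at 11.9, 19.7 and 12.8%. Clusters with endothelial and pericyte markers together were kept out of the comparisons, and they held 310, 252 and 224 droplets.

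On average over the 3 libraries, 13 members were highest in pericytes, 9 in endothelial cells, 8 in smooth muscle cells, 5 in Müller glia and 1 in rods. The same split was not counted over all genes, so these counts only describe the members. In 11 of the 13 pericyte members, 7 of the 9 endothelial members, 6 of the 8 smooth muscle members and all 5 Müller glia members, that class was the highest in each library. No member was highest in cones or bipolar cells. Smoc2, counted under pericytes from 10 UMIs in 1 cell, was highest in bipolar cells with thinning to 2000 UMIs and with stricter cell limits. Fbln5 was highest in Müller glia under both, and Lama3 and Col4a5 with thinning. The plot of all 36 genes by class and age shows most collagen and laminin chains strongest in pericytes or smooth muscle cells, several glycoproteins strongest in endothelial cells, and low values for most genes in the neurons.

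**Figure D1:**
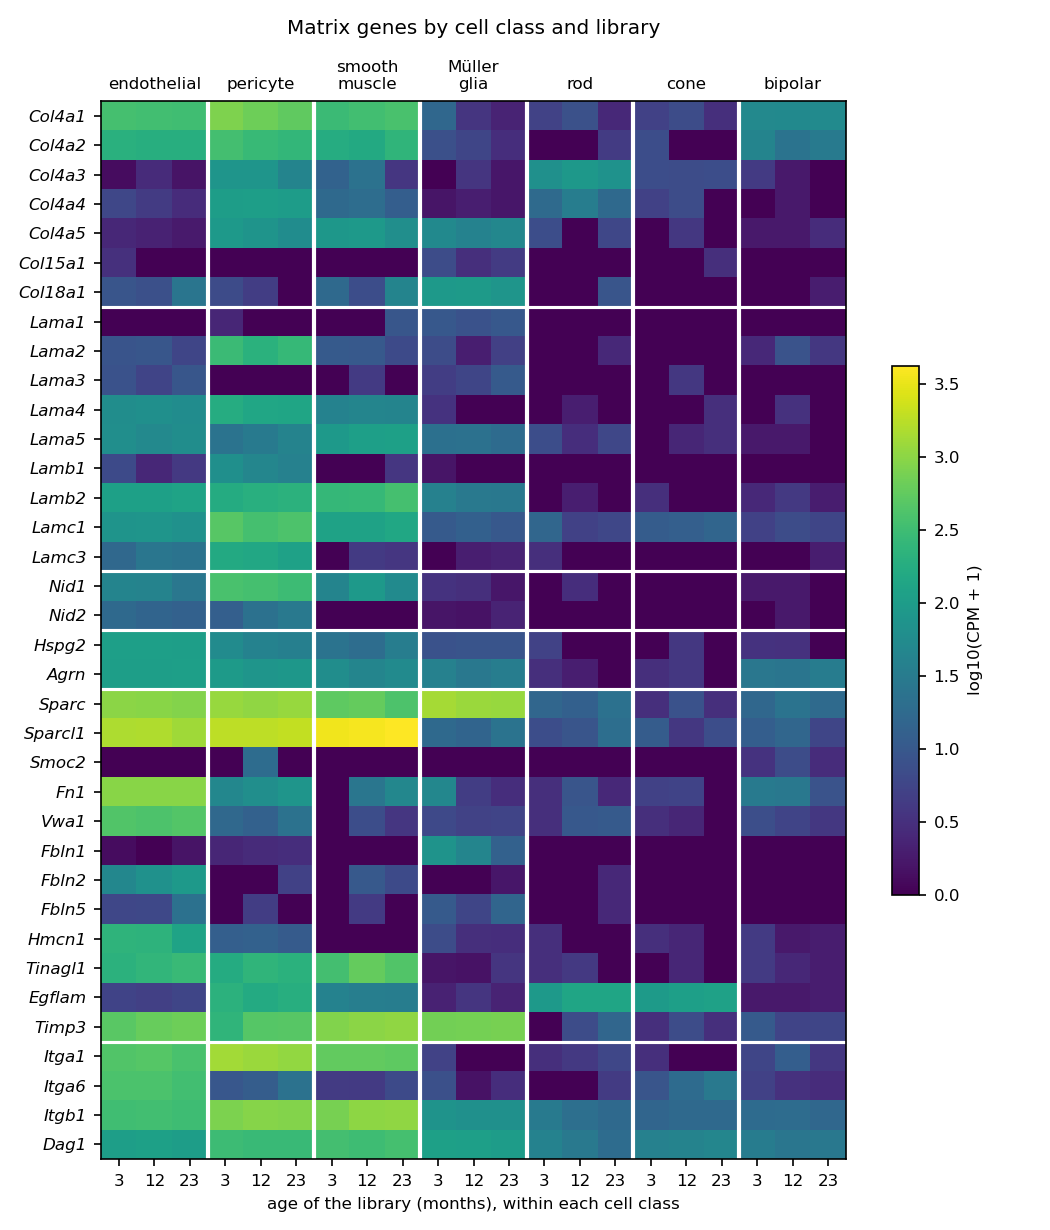
Heat map of log10(CPM + 1) for the 36 genes (rows, grouped as collagens, laminin chains, nidogens, proteoglycans, other matrix proteins and receptors) in 7 cell classes at 3, 12 and 23 months (columns). Pericytes hold 13 of the row maxima, endothelial cells 9, smooth muscle cells 8, Müller glia 5 and rods 1.

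The first comparison set endothelial cells against pericytes, which share the capillary basement membrane. A difference was called when it was at least 2-fold with an adjusted p under 0.05 in edgeR's quasi-likelihood test, with Benjamini-Hochberg adjustment over the 11079 genes tested and the library as a block. Of the 36 members, 30 passed the filter on low counts. Of these, 13 were called higher in pericytes, against 13.7% of all genes tested, and 8 were called higher in endothelial cells, against 13%. The median log2 difference was -0.48 over the 30 members and 0.08 over all genes. The 6 members not tested for low counts were Col15a1, Lama1, Lama3, Fbln1, Fbln5 and Smoc2. The replicates here are the 3 libraries, which differ in age. With the library as a block, shifts that all classes of a library share are taken out. The p-values therefore rest on the spread that remains within classes after these shifts. The fit used the sums of all classes, neurons included, so that spread does not come from endothelial cells and pericytes alone.

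The pericyte side held most of the collagen and laminin chains. The genes of the major type IV collagen chains, Col4a1 (chr8:11198423-11312826, minus strand, GENCODE M21 on GRCm38) and Col4a2 (chr8:11312805-11449287, plus strand), overlap by 22 bases at their start sites and are transcribed away from each other. The overlap is printed because the pair shares this start region and was measured in the same classes. It is given on the plus strand from chr8:11312801-11312830 of the RefSeq promoter table (GRCm38.p6), 5′ to 3′, with the bases from the Col4a2 start to the Col4a1 start in capitals.
Col4a1 and Col4a2 start sites: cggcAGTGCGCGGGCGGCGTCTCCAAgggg
The stretch holds the letters GGGCGG, searched on both strands, which also occur in 35.7% of all 32851 promoter windows of 300 bases and in 18 of the 24 members with a window in that table.

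Col4a1 stood at 825, 677 and 545 CPM in young, adult and old pericytes and at 363, 340 and 327 CPM in endothelial cells. Every pericyte value lay above every endothelial value, with a log2 difference of -0.82 (SE 0.12, edgeR adjusted p = 3.13e-07), which is under the 2-fold limit. Its partner Col4a2 followed the same order, with 343, 281 and 253 CPM in pericytes and 197, 189 and 184 CPM in endothelial cells, and a log2 difference of -0.46 (SE 0.13, edgeR adjusted p = 0.00296). Across the 21 sums of class and library, the log2(CPM + 1) levels of Col4a1 and Col4a2 had a Pearson r of 0.95 and a Spearman rho of 0.91, a description over sums that share libraries.

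The other type IV collagen chains separated the classes further. Col4a3 and Col4a4, which also lie head to head on chromosome 1, encode chains known from the kidney filter and the lens capsule, and Col4a5 on the X chromosome encodes their partner. Col4a4 was at 102, 107 and 98.5 CPM in pericytes against 4.92, 3.29 and 1.92 CPM in endothelial cells. Col4a3 was at 77.2, 76.9 and 42.2 CPM in pericytes and no higher than 1.79 CPM in endothelial cells, and Col4a5 at 91.6, 75.1 and 56.3 CPM in pericytes and no higher than 1.54 CPM. All 3 were called higher in pericytes, with log2 differences of -4.74 for Col4a4, -5.92 for Col4a3 and -5.71 for Col4a5, in 3 of 3 libraries (edgeR adjusted p from 6.63e-19 to 7.46e-17). In endothelial cells none of the 3 was above carry-over.

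Among the laminins, pericytes carried Lama2, the alpha chain best known from muscle. It was at 290, 206 and 269 CPM in pericytes, against 7.69, 8.37 and 4.66 CPM in endothelial cells, where it was not above carry-over (log2 difference -5.02, SE 0.21, edgeR adjusted p = 1.06e-22). Lama4, the alpha chain typical of endothelium, was at 175, 138 and 133 CPM in pericytes and at 58.8, 63.4 and 57.6 CPM in endothelial cells. It was called higher in pericytes, although without the young library the log2 difference was -0.97 and the call was lost. Lama5 went the other way, with 60.9, 49.9 and 58.4 CPM in endothelial cells and 22.9, 30.4 and 40.2 CPM in pericytes, and was called higher in endothelial cells (log2 difference 1.06). Without the young library that difference was 0.81, under the 2-fold limit.

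Lamb1 and both gamma chains were called higher in pericytes as well. Lamb1 stood at 62.9, 44.7 and 38.2 CPM in pericytes and at 5.54, 1.5 and 3.02 CPM in endothelial cells (log2 difference -3.68, SE 0.37, edgeR adjusted p = 2.02e-10). Lamb2 was shared more evenly, with 170, 191 and 211 CPM in pericytes and 116, 114 and 125 CPM in endothelial cells, and was not called. Lamc1, the gamma chain of most laminins, was at 484, 354 and 408 CPM in pericytes and at 73.9, 77.8 and 66.4 CPM in endothelial cells. Lamc3, a second gamma chain, was at 159, 147 and 117 CPM against 16, 25.1 and 23 CPM. The log2 differences were -2.35 for Lamc1 and -2.56 for Lamc3, and the classes did not overlap for either.

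**Figure D2:**
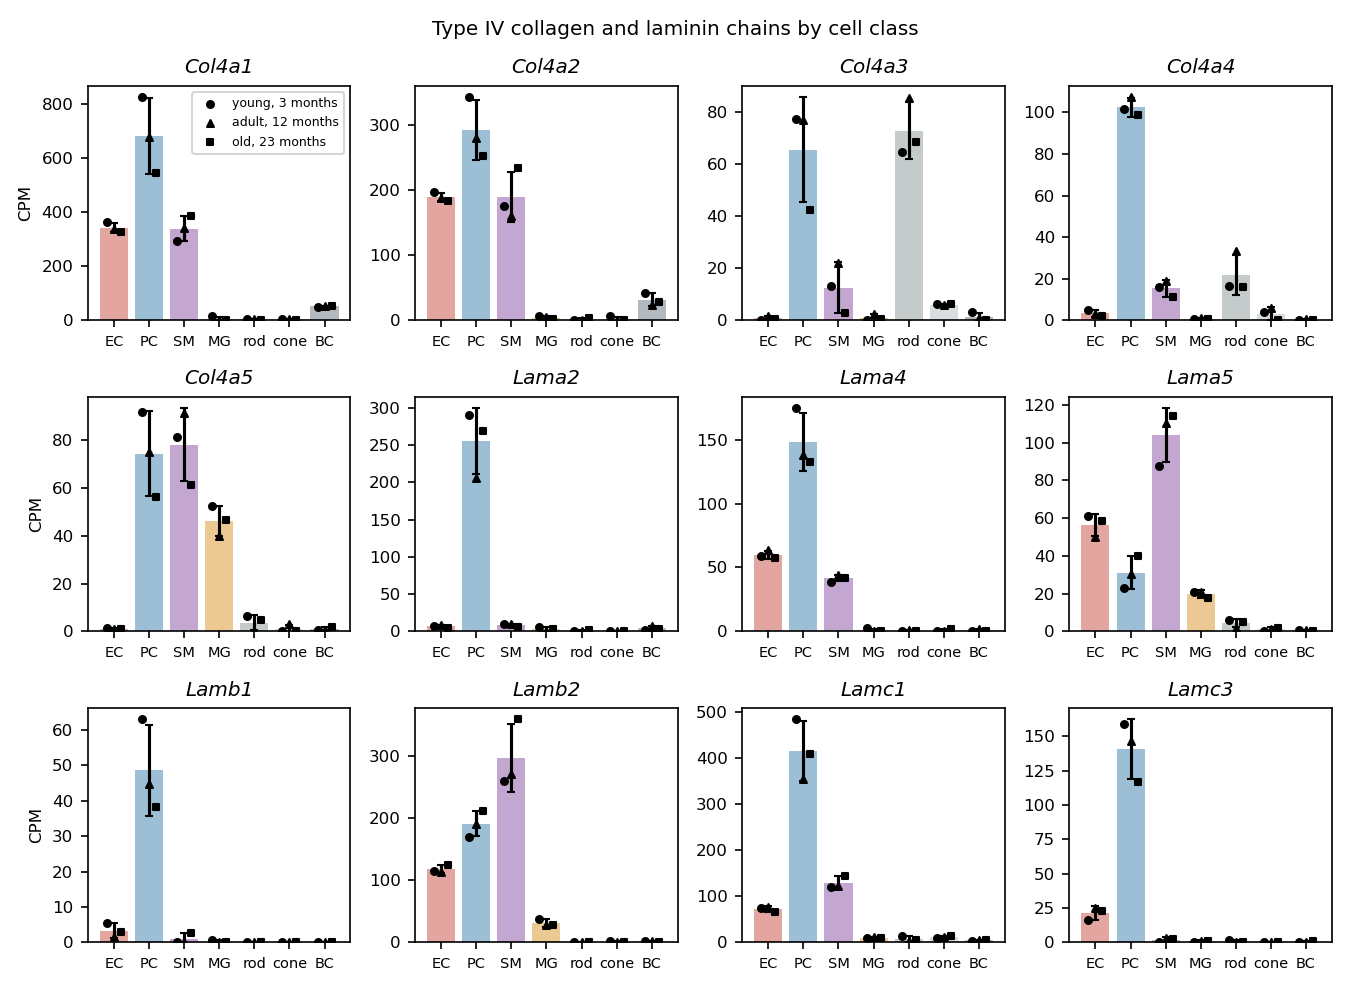
CPM of type IV collagen and laminin chain genes in endothelial cells (EC), pericytes (PC), smooth muscle cells (SM), Müller glia (MG), rods, cones and bipolar cells (BC). Bars are means with SD over the 3 libraries and points are the libraries, and Lama2, Lamb1 and Lamc3 stand almost alone in pericytes while Col4a3 also stands in rods.

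Of the linker genes, Nid1 belonged with the pericyte set and Hspg2 with the endothelial set. Nid1, the gene of nidogen-1, was at 379, 359 and 305 CPM in pericytes and at 41.9, 41.3 and 26.6 CPM in endothelial cells (log2 difference -3.09, SE 0.13, edgeR adjusted p = 5.95e-22). Nid2 was low in both classes, with 11.4, 21.4 and 28.1 CPM in pericytes and 16.3, 13.8 and 12.3 CPM in endothelial cells, and the groups overlapped. Hspg2, the gene of perlecan, was at 110, 109 and 107 CPM in endothelial cells and at 54.4, 39.3 and 36.2 CPM in pericytes (log2 difference 1.47, SE 0.19, edgeR adjusted p = 2.58e-08). Agrn, the gene of the proteoglycan agrin, was nearly level, with 105, 106 and 111 CPM in endothelial cells and 94.4, 76.9 and 82.4 CPM in pericytes. Its log2 difference of 0.51 (SE 0.14) passed the adjusted p but not the 2-fold limit.

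The endothelial side was led by glycoproteins and a laminin receptor. Fn1, the gene of fibronectin, was at 963, 956 and 967 CPM in endothelial cells and at 47.2, 60.8 and 76.3 CPM in pericytes. Vwa1, the gene of a small perlecan-binding protein, was at 441, 412 and 449 CPM against 15.7, 12.5 and 22.1 CPM. Hmcn1, the gene of hemicentin-1, a giant protein of basement membrane junctions, was at 223, 223 and 127 CPM against 11.4, 12.5 and 10.0 CPM. Fn1, Vwa1 and Hmcn1 were each called, with log2 differences of 4.19, 4.87 and 4.25, in 3 of 3 libraries, and none of them was above carry-over in pericytes. Fbln2, the gene of fibulin-2, was at 46.8, 66.1 and 86.1 CPM in endothelial cells, while the 3 pericyte sums held 2 UMIs of it in all. Pooled over libraries it was 58.9-fold higher in endothelial cells, with a counting interval of 16.2 to 488. Itga6, the integrin alpha chain that binds laminin, was at 401, 400 and 339 CPM in endothelial cells and 8.58, 10.7 and 22.1 CPM in pericytes (log2 difference 5.01, SE 0.23, edgeR adjusted p = 1.10e-21). It was not above carry-over in pericytes either.

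Col18a1, the gene of the collagen that releases endostatin, had an endothelial call that rested on the old library. It was at 8.0, 6.58 and 24.7 CPM in endothelial cells and at 5.72, 3.57 and 0 CPM in pericytes, with a log2 difference of 2.04 (SE 0.73, edgeR adjusted p = 0.021). Fbln5, too low for the filter over all libraries, was called higher in endothelial cells without the young library (log2 difference 2.84). For Col18a1 the difference without the old library was 0.76, with an edgeR adjusted p of 0.367.

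The receptors other than Itga6 stood on the pericyte side. Itga1, the integrin alpha chain that binds collagen, was at 1340, 1198 and 1091 CPM in pericytes and at 430, 459 and 386 CPM in endothelial cells. Itgb1, the beta chain that pairs with both, was at 814, 913 and 886 CPM against 328, 334 and 319 CPM. Dag1, the gene of dystroglycan, was at 306, 284 and 285 CPM against 108, 112 and 104 CPM. All 3 were called, with log2 differences of -1.34, -1.24 and -1.26. The dystroglycan ligand Egflam, which encodes pikachurin and is known from the photoreceptor synapse, was at 210, 164 and 187 CPM in pericytes and at 4.31, 3.89 and 4.66 CPM in endothelial cells, not above carry-over (log2 difference -5.26, SE 0.20, edgeR adjusted p = 1.68e-24).

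Genes named for secreted regulators were shared between the classes and not called. Sparc, the gene of a collagen-binding matricellular protein, was at 901 to 991 CPM in endothelial cells and 1039 to 1159 CPM in pericytes. Sparcl1, its relative, was at 1298 to 1560 CPM in endothelial cells and 1830 to 1985 CPM in pericytes. Tinagl1, the gene of a laminin-associated protein, was at 212 to 281 CPM against 170 to 234 CPM. Timp3, the gene of a matrix-bound inhibitor of metalloproteases, was at 492, 610 and 670 CPM in endothelial cells and at 236, 470 and 488 CPM in pericytes, with a log2 difference of 0.77.

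**Figure D3:**
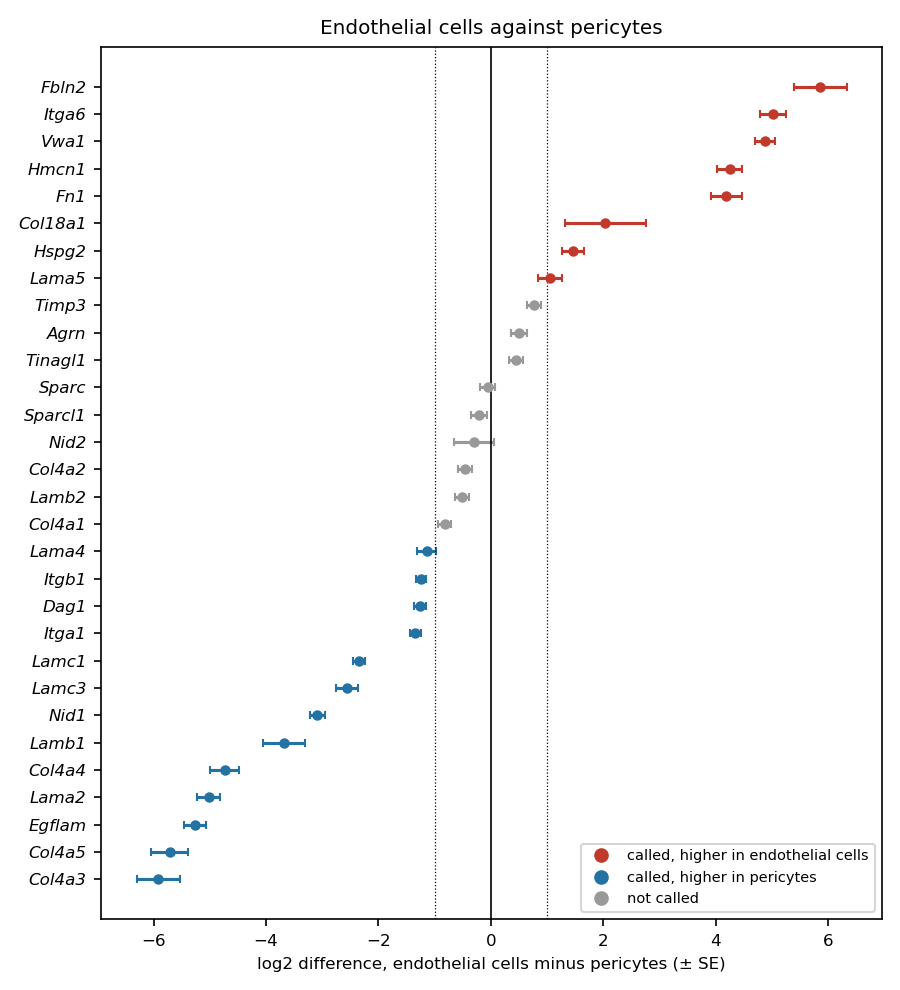
Log2 difference between endothelial cells and pericytes with its SE for the 30 members tested, each a row, and dotted lines at the 2-fold limits. The 8 members called higher in endothelial cells lie to the right and the 13 called higher in pericytes to the left.

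For Lama2 and Fn1, droplets that carried markers of both classes lay between them, which did not hold for every member. Lama2 was at 89.9, 97.4 and 89.8 CPM in these droplets and Fn1 at 697, 652 and 583 CPM. When these droplets were counted as endothelial cells, 7 members were called higher in endothelial cells and 9 in pericytes, and the pericyte calls of Dag1, Itga1, Itgb1 and Lama4 were lost. For the class contrasts, shares of all genes called are given for the main setting only, here and for the alternatives below. Counts under an alternative therefore have no background beside them.

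In each of 4 wider lists chosen alongside the members, more genes were called higher in pericytes than in endothelial cells, by a margin of 1 gene in the list of proteases. The shares of all genes were 13.7% and 13%. Of 14 tested genes of collagen assembly and cross-linking, 8 were called higher in pericytes and 1, the prolyl hydroxylase gene P4ha2, in endothelial cells, with a median log2 difference of -1.42. P3h2 (log2 difference -4.30), Loxl2 (-2.98) and Pxdn (-2.85), which encode a prolyl hydroxylase, a lysyl oxidase and the peroxidase that cross-links type IV collagen, were among those higher in pericytes. Of 20 other matrix receptors, 14 were called higher in pericytes and 1, Itga5, in endothelial cells, with a median of -2.42. Itga8 (-5.92), Itga4 (-5.72), the syndecan gene Sdc2 (-5.58) and Itga7 (-5.20) had the largest differences. Of 16 other matrix proteins, 10 were called higher in pericytes, led by Dcn (-6.81), Col1a2 (-5.64) and Col3a1 (-5.63), and 3 in endothelial cells, led by Spock2 (4.37) and the elastin gene Eln (2.68). Of 11 proteases and inhibitors, 4 were called higher in pericytes, led by Mmp14 (-5.29) and Adamts4 (-4.99), and 3 in endothelial cells, Adam15 (2.96), Adam10 (2.26) and Adamts1 (1.41). Dcn, Col1a2 and Col3a1 are fibroblast markers as well. Of 6 fibroblast markers, 5 had UMIs in pericytes, and their summed level was 195, 356 and 159 CPM there against 5.23, 4.19 and 2.47 CPM in endothelial cells. The pericyte sums held 19, 90 and 19 UMIs of Dcn, 60, 57 and 37 of Col1a2, 56, 39 and 23 of Col3a1, 1, 12 and 0 of Col1a1, 0, 1 and 0 of Lum and none of Pdgfra. The part of fibroblast RNA in these differences was not tested.

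The mural classes were compared next. Smooth muscle cells, which wrap the arterioles, carried the same type IV collagen pair but a different laminin makeup from pericytes. Of the 30 members tested, 13 were called higher in pericytes, against 6.85% of all genes, and 5 higher in smooth muscle cells, against 5.22%. The laminin genes Lama2 (9.75, 9.45 and 5.57 CPM in smooth muscle cells), Lamb1 (0, 0 and 2.78 CPM) and Lamc3 (0, 3.15 and 2.78 CPM) were near absent from smooth muscle cells, with log2 differences of -4.82, -5.32 and -5.94 from pericytes. The smooth muscle sums held 1 UMI of Lamb1 and 2 of Lamc3 in all. Pooled over libraries, pericytes were 49.3-fold higher for Lamb1 (counting interval 8.62 to 1970) and 70.3-fold higher for Lamc3 (19.3 to 584). Nid2 and Hmcn1 were at 0 in smooth muscle cells. With the limit that 3 counts over the pooled smooth muscle sums allow, 3.05 CPM, pericytes were at least 6.35-fold higher for Nid2 and at least 3.74-fold higher for Hmcn1. Hmcn1 was not above endothelial carry-over in pericytes, and endothelial markers stood in smooth muscle cells at 1.18, 3.97 and 1.37% of their endothelial level. The Hmcn1 call was lost in cells without markers of other classes (log2 difference -3.76, edgeR adjusted p = 0.428), where Nid2 was too low to be tested.

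Smooth muscle cells were the highest class for Lama5 (87.8, 110 and 114 CPM), Lamb2 (260, 271 and 359 CPM), Sparcl1 (3495, 3753 and 4216 CPM), Tinagl1 (345, 592 and 432 CPM) and Timp3 (868, 989 and 1039 CPM). Lama5, Sparcl1, Tinagl1 and Timp3 were called higher than in pericytes, with log2 differences of 1.90, 1.14, 1.28 and 1.44, in 3 of 3 libraries. Lamb2 did not reach the 2-fold limit. The fifth call was Col18a1 (16.3, 6.30 and 41.8 CPM), and without the old library its log2 difference was 1.33 with an edgeR adjusted p of 0.361. Calls of Vwa1 and Sparc on the pericyte side were also lost without the old library (log2 differences -2.00 and -0.88). Without the old library Col4a1 (-1.12) and Itga1 (-1.03) were called higher in pericytes, as each also was under other alternatives. The call of Vwa1 was lost without the young library too (-1.82). Smooth muscle cells had Col4a1 at 293, 340 and 384 CPM and Col4a2 at 176, 161 and 234 CPM. They also had Col4a5 at 81.3, 91.3 and 61.3 CPM, which overlapped the pericyte values, with Col4a3 at 13.0, 22.0 and 2.78 CPM and Col4a4 at 16.3, 18.9 and 11.1 CPM. As a share of the pericyte level, Col4a4 (16, 17.6 and 11.3%), Lama2, Lamb1 and Lamc3 were at or under the pericyte marker share in smooth muscle cells in all 3 libraries, and Col4a3 (16.8, 28.7 and 6.6%) in 2 of 3.

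Müller glia, the radial glia that span the retina, carried few of the vascular components. Against them, endothelial cells had 24 members called higher, against 18.6% of all genes, and 2 lower, against 23.8%. Pericytes likewise had 24 called higher, against 16.7% of all genes, and 2 lower, against 20.3%. Among these 24 are Fn1, Vwa1, Hmcn1 and Itga6, which were not above endothelial carry-over in pericytes. In cells without markers of other classes 19 were called, without these 4 and Nid2. The 24 on the endothelial side include Col4a4, Egflam and Lama2, which were not above pericyte carry-over in endothelial cells, and 19 were called there too, without these 3, Lamb1 and Nid2. The medians over the 30 members tested were 3.73 and 3.97 on the log2 scale, where those of all genes were 0.00 and -0.07. The largest differences from Müller glia were those of Itga1 (log2 difference 8.25), Fbln2 (7.87), Tinagl1 (7.67) and Itga6 (7.03) in endothelial cells and of Itga1 (9.59), Nid1 (7.46), Lama4 (7.30) and Lamb1 (7.26) in pericytes. Itga1 itself had 7 UMIs in young, 0 in adult and 0 in old Müller glia. The Müller glia sums held 1 UMI of Fbln2 and 1 of Lamb1 in all. Pooled over libraries, Fbln2 was 345-fold higher in endothelial cells (counting interval 61.8 to 13700). Lamb1 was 258-fold higher in pericytes (45.1 to 10300). Summed endothelial markers stood in Müller glia at 8.84, 8.33 and 8.63% of their endothelial level. Of the 20 members at 30 CPM or more in endothelial cells of all 3 libraries, 12 were at or under that share. Among them were Col4a1, Col4a2, Lama4, Hspg2 and Fn1. Their own shares varied, with 6.55, 7.13 and 7.29% for Hspg2 and 0.978, 0 and 0% for Itga1. How much of the marker share is carried RNA was not tested. A few of the 24 calls depended on a library. On the endothelial side Col4a4 and Egflam were lost without the young library (log2 differences 1.60 and 1.14), Egflam without the old (1.10) and Lama2 without the adult (0.37), and on the pericyte side Fn1 and Hmcn1 were lost without the adult library (1.22 and 1.26) and Itga6 without the old (1.39).

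Müller glia did carry some of the matrix genes, of which only Col18a1 and Col4a5 were called higher there than in endothelial cells. Col18a1 was at 87.0, 93.4 and 77.8 CPM, above every other class in every library, with log2 differences of -2.71 for endothelial cells (SE 0.25, edgeR adjusted p = 1.61e-12) and -4.75 for pericytes (SE 0.52, edgeR adjusted p = 3.59e-10). Col4a5 was at 52.2, 39.7 and 46.7 CPM and was called higher than in endothelial cells (log2 difference -5.12), while its difference from pericytes was not called (log2 difference 0.59). Sparc was at 1356, 1187 and 1151 CPM and overlapped the pericyte values. Timp3, at 706, 745 and 753 CPM, was called higher than in pericytes (log2 difference -1.05), a call lost without the young library (-0.75). Dag1 was at 114, 109 and 98.5 CPM, with a log2 difference of 0.06 (SE 0.10) from endothelial cells that was not called. Agrn was at 37.8, 27.3 and 33.1 CPM, Lamb2 at 37.8, 27.9 and 27.2 CPM and Lama5 at 21, 21.1 and 17.5 CPM, and all 3 were called higher in endothelial cells (log2 differences 1.78, 1.98 and 1.54).

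Members not tested for low counts were also found in Müller glia, at low level or in few cells. Lama1, the alpha chain of embryonic and retinal surface basement membranes, was at 9.0, 7.22 and 9.08 CPM, from 15, 14 and 14 UMIs spread over 13, 14 and 14 cells, and at 0 in all endothelial sums. Over the pooled sums it was at least 28.5-fold higher than in endothelial cells, counted from a limit of 3 counts over the endothelial sums. Col15a1 was at 6.0, 2.06 and 3.24 CPM from 10, 4 and 5 UMIs. Fbln1, the gene of fibulin-1, was at 71.4, 43.8 and 12.3 CPM, yet 5 cells held 115 of its 119 young UMIs, 5 cells 84 of its 85 adult UMIs, and 2 cells all 19 old UMIs. Fbln1 passed the filter without the young or the old library and was then called higher in Müller glia than in endothelial cells (log2 differences -6.07 and -7.81). Fbln5, the gene of an elastic fibre protein, was at 9.60, 4.64 and 14.3 CPM, and Lama3 at 3.60, 4.64 and 9.72 CPM.

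Neurons carried little of the set, with a few specific members. The mean of rods, cones and bipolar cells was called lower than Müller glia for 15 of the 30 members tested, against 27% of all genes, and higher for 2, Egflam and Col4a3, against 12.3%. With free RNA subtracted, 8 were called lower, without Fn1, Hmcn1, Hspg2, Itgb1, Lama2, Nid1 and Sparcl1. The free RNA share was estimated from rod markers, with the summed counts of all deposited barcodes as the profile. That profile was not taken from empty droplets, so the share is not a measured amount of free RNA. For Müller glia the estimate was 20.7, 37.6 and 33.9% of the UMIs. Col18a1 (log2 difference -7.66), Timp3 (-7.21), Sparc (-6.99) and Lamb2 (-5.19) had the largest differences on the Müller glia side. Lama2, Nid1 and Fn1 lost their call on that side without the young library (log2 differences -1.78, -1.98 and 0.99, the last turned in direction), as did Nid1 and Sparcl1 without the old (-2.29 and -0.98).

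Egflam was carried by photoreceptors as well as by pericytes. It was at 91.7, 136 and 135 CPM in rods and 93.6, 111 and 119 CPM in cones, but at most 0.937 CPM in bipolar cells and 2.58 CPM in Müller glia (log2 difference 3.50 for the mean of the neurons, SE 0.63, edgeR adjusted p = 5.56e-06). With free RNA subtracted this call was lost. Col4a3 was at 64.6, 85.3 and 68.4 CPM in rods, which overlapped the pericyte values, and at about 6 CPM in cones. Its call for the mean of the neurons, a log2 difference of 2.65, was lost without the young library (1.65, edgeR adjusted p = 0.135). Col4a4 followed in rods with 16.7, 33.1 and 16.3 CPM. Pericyte values of Egflam stayed above those of rods and cones in each library.

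Bipolar cells carried Col4a1 at 50.6, 51.6 and 53.4 CPM and Col4a2 at 42.7, 23.2 and 29.1 CPM. In rods Col4a1 was at 4.17, 7.02 and 1.63 CPM and in Müller glia at 15.0, 2.58 and 1.30 CPM, so the level in bipolar cells was above these classes in each library. Within the bipolar class the highest level of Col4a1 was in the cluster led by Pcp2, Prkca and Trpm1, at 76.1, 86.6 and 80.7 CPM. Col4a1 was not called for the mean of the neurons against Müller glia (log2 difference 0.57), but was called higher in neurons without the young library (2.17, edgeR adjusted p = 0.00121) and with free RNA subtracted. Agrn was at 26.1, 24.7 and 31.9 CPM in bipolar cells and at most 2.92 CPM in photoreceptors. Smoc2, the gene of a calcium-binding matricellular protein, had 3, 8 and 2 UMIs in bipolar cells, and its only other UMIs among the 7 classes were 10 in 1 adult pericyte.

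Ages were compared within a class between the old and the young library. No age was replicated and no test was run. Ratios carry exact 95% conditional intervals that cover counting error only. A gene was counted as measured with 50 UMIs or more over both libraries, and as different at 1.5-fold or more. In endothelial cells 26 members were measured. Of these, 3 were higher in the old library, against 4.87% of all measured genes, and 2 were lower, against 3.03%. In pericytes 23 members were measured, with 2 higher, against 7.45% of all genes, and 5 lower, against 4.46%. With TMM scaling the pericyte background was 5.44% higher and 5.34% lower, and the members' counts were 2 and 5. In Müller glia 12 members were measured, with 0 higher, against 5.06%, and 2 lower, against 3.66%. In smooth muscle cells 12 were measured, with 0 higher, against 9.06% of all measured genes, and 0 lower, against 4.91%. Median UMIs per cell were 5653, 6001 and 7486 in endothelial cells and 3980, 4009 and 4698 in pericytes, a depth difference that runs with age. With endothelial cells thinned to 2000 UMIs, 21 members were measured. Fbln2 and Tinagl1 were then past the limit on the higher side and Nid1 and Hmcn1 on the lower side, while Fbln5 and Col18a1 had too few UMIs to be measured.

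**Figure D4:**
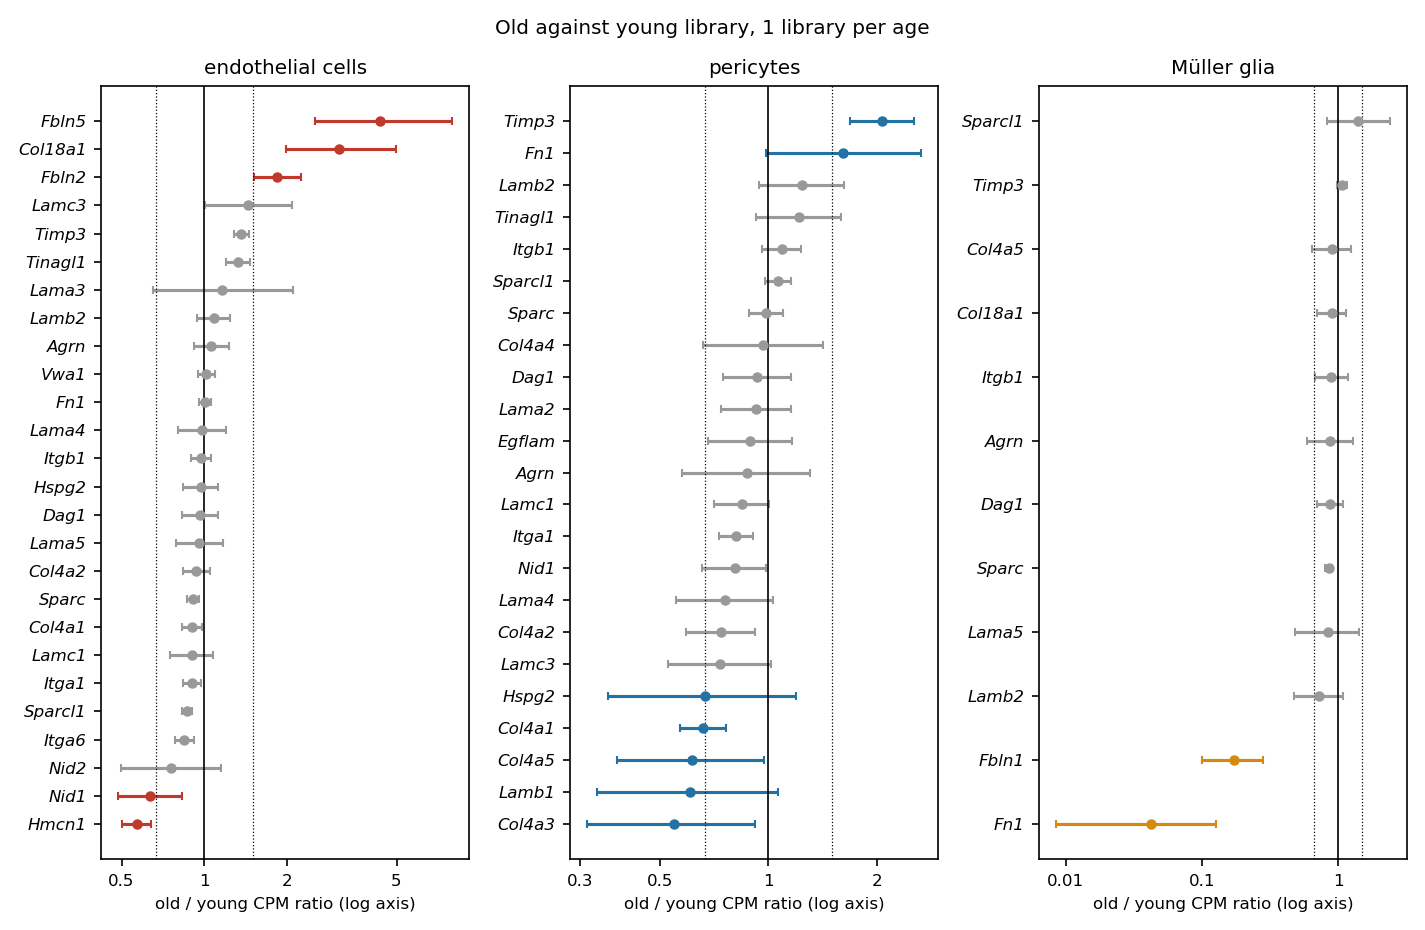
Ratio of CPM in the old to the young library, on a log axis, with exact 95% conditional intervals for members with 50 UMIs or more in endothelial cells (26), pericytes (23) and Müller glia (12). Coloured points lie past the dotted lines at 1.5-fold, and Fbln5, Col18a1 and Fbln2 lie past it on the higher side in endothelial cells.

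In endothelial cells the higher members were the fibulin genes Fbln5 and Fbln2 and the collagen gene Col18a1. Fbln5 went from 16 UMIs in the young to 78 in the old library, or 4.92, 5.08 and 21.4 CPM over the 3 ages, a ratio of 4.35 (2.52 to 7.98). It was found in 9, 8 and 17 cells, of which 5 held 12 of the 16 young, 14 of the 17 adult and 53 of the 78 old UMIs. Col18a1 went from 26 to 90 UMIs, a ratio of 3.09 (1.98 to 4.98). Fbln2 went from 152 to 314 UMIs, a ratio of 1.84 (1.51 to 2.25), with the adult library in between at 66.1 CPM. These 3 genes were read mostly from the cluster with 6 of 7 arterial markers, a split chosen after the values were seen. Its share of endothelial cells was 10.4, 12.7 and 19.1% by age (exact binomial intervals 7.74 to 13.7, 9.69 to 16.2 and 15.4 to 23.2).

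Within the arterial cluster Fbln5 was at 35.9, 30.6 and 99.5 CPM, with a ratio of 2.77 (1.60 to 5.08), and Col18a1 at 56.2, 42.8 and 105 CPM, with a ratio of 1.86 (1.18 to 3.04). In the other endothelial cells Fbln5 had 2 adult UMIs and none at the other ages, and Col18a1 was at 0.357, 0.351 and 2.80 CPM. Fbln2 was at 225, 267 and 278 CPM in the arterial cluster, a ratio of 1.24 (0.973 to 1.59) that was under 1.5-fold, and at 18.5, 31.5 and 33.6 CPM in the other endothelial cells, a ratio of 1.81 (1.28 to 2.59). In the mixed endothelial-pericyte droplets, which were not part of the class, the ratio was 0.934 (0.421 to 2.02) for Fbln5, 0.928 (0.575 to 1.48) for Col18a1 and 1.19 (0.954 to 1.49) for Fbln2, so none of the 3 passed there. Leaving out the arterial cluster left 1 member higher, Fbln2, and 1 lower, Hmcn1. Old cells of that cluster also gave more UMIs each, with medians of 6964, 6732 and 9187.

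Among the 26 members measured, Hmcn1 had the lowest endothelial ratio, at 223, 223 and 127 CPM and 0.567 (0.504 to 0.638). It was lower in the old library in the arterial cluster, with a ratio of 0.531 (0.309 to 0.911), in the other endothelial cells, with 0.611 (0.540 to 0.690), and in the mixed endothelial-pericyte droplets, with 0.674 (0.590 to 0.770). Nid1, at 41.9, 41.3 and 26.6 CPM, had a ratio of 0.636 (0.485 to 0.831). In cells without markers of other classes its ratio was 0.773, so it did not pass there. Among the abundant endothelial members, Timp3 (1.36), Tinagl1 (1.33, interval 1.20 to 1.46), Itga6 (0.844, interval 0.780 to 0.913) and Sparcl1 (0.863) had intervals that exclude 1 without reaching 1.5-fold, and so did Sparc, Itga1 and Col4a1, at 0.899 to 0.910. Others were closer to 1. Fn1 had a ratio of 1.005 (0.957 to 1.055), Vwa1 1.02 (0.947 to 1.09), Hspg2 0.971 (0.839 to 1.13) and Lama4 0.980 (0.802 to 1.20).

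**Figure D5:**
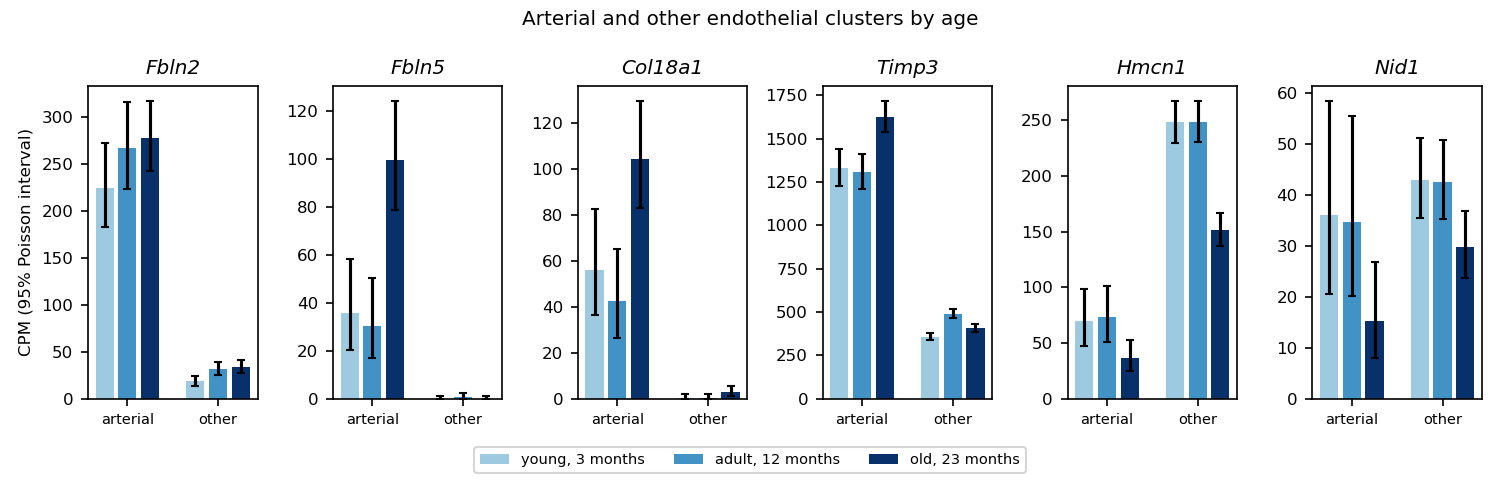
CPM with 95% Poisson intervals of Fbln2, Fbln5, Col18a1, Timp3, Hmcn1 and Nid1 in the arterial cluster and the other endothelial cells at 3, 12 and 23 months. Fbln5 and Col18a1 stand in the arterial cluster at every age, and Hmcn1 is lower at 23 months in both groups of cells.

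Some members differed between the arterial cluster and the other endothelial cells at each age, while Lama4, Lama5, Hspg2 and Itga1 had ratios with intervals that include 1 at all 3 ages. Fbln2 was 12.1-fold, 8.46-fold and 8.29-fold higher there by age, and Timp3 3.70-fold, 2.67-fold and 3.99-fold. Fn1 was 1.78-fold, 1.64-fold and 1.58-fold higher, while Hmcn1 was lower, at 0.281, 0.296 and 0.245 of its level in the other cells, as was Vwa1, at 0.629, 0.387 and 0.640. All counting intervals of these ratios excluded 1. Lama3, the alpha chain of epithelial laminins, was at 40.4, 12.2 and 26.8 CPM in the arterial cluster and at 1.78, 3.15 and 3.15 CPM in the other cells. Col15a1 was at 0 in all but the young library, where 1 endothelial cell held its 7 UMIs.

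In pericytes the lower members were 3 type IV collagen genes, the laminin gene Lamb1 and the perlecan gene Hspg2. Col4a1 was at 825, 677 and 545 CPM, with an old-to-young ratio of 0.660 (0.569 to 0.763), and it was lower at each later age. Its partner Col4a2 had a ratio of 0.737 (0.590 to 0.919), short of 1.5-fold. Col4a5 (64 to 28 UMIs, ratio 0.614, interval 0.379 to 0.972) and Col4a3 (54 to 21 UMIs, ratio 0.546, interval 0.313 to 0.919) also passed. Lamb1 (44 to 19 UMIs, ratio 0.607, interval 0.334 to 1.06) and Hspg2 (38 to 18 UMIs, ratio 0.665, interval 0.357 to 1.19) passed on few UMIs, and their intervals include 1. Of the 23 members 6 had a ratio above 1, with a median log2 ratio of -0.20, where that of all genes was 0.07. In the mixed endothelial-pericyte droplets Col4a1 was at 527, 499 and 434 CPM. With cells thinned to 2000 UMIs the Col4a1 ratio was 0.556, and with stricter cell limits it was 0.676, just short of 1.5-fold. The pericyte class held 170, 130 and 102 cells at the 3 ages.

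Smooth muscle cells, the other mural class, had Col4a1 at 293, 340 and 384 CPM, an old-to-young ratio of 1.31 (1.00 to 1.73). Their largest ratios were those of Itgb1 at 1.42 (1.20 to 1.68) and Lamb2 at 1.38 (1.04 to 1.85). Of the 12 measured, 10 had a ratio above 1, with a median log2 ratio of 0.30, where that of all genes was 0.08. Whether the mural classes differ in their age ratios was not tested.

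The higher pericyte members were Timp3 and Fn1. Timp3 was at 236, 470 and 488 CPM, with a ratio of 2.07 (1.69 to 2.54), and the step lay between the young and the adult library. Retinal pigment epithelium, in which Timp3 was at 3188 CPM in the old library, held 1, 7 and 53 cells at the 3 ages. Its markers stood in pericytes at 0, 5.36 and 10.05 CPM, the last being 0.0143% of their level in the old epithelium. The part of epithelial RNA in the Timp3 ratio was not tested. Rods had Timp3 at 0, 6.02 and 14.7 CPM. Timp3 in endothelial cells had a ratio of 1.36 (1.28 to 1.45) and in Müller glia 1.07 (0.983 to 1.16). Fn1 in pericytes, at 47.2, 60.8 and 76.3 CPM, had a ratio of 1.62 (0.988 to 2.66) and was not above endothelial carry-over at any age.

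Among Müller glia both lower members rested on few cells. Fn1 had 77, 7 and 3 UMIs by age, an old-to-young ratio of 0.0421 (0.00849 to 0.128). In the young library 5 cells with a UMI of Pax2, a marker of astrocytes, held 44 of the 77 UMIs, together with 134 of 142 UMIs of Pdgfra and 123 of 161 of Gfap, and no adult or old Müller cell had a Pax2 UMI. Without these 5 cells Fn1 was at 20.9 CPM in the young library, still above the 3.61 and 1.945 CPM of the adult and old libraries. Its 33 young and 3 old UMIs were then too few for it to count as measured. Fbln1 went from 119 to 19 UMIs, a ratio of 0.172 (0.100 to 0.281), in 9 young, 6 adult and 2 old cells. The Pax2 cells held 3 of the 119. Summed fibroblast markers stood in Müller glia at 272, 57.2 and 79.1 CPM, with 265, 71 and 101 UMIs of Dcn, and their part in the Fbln1 ratio was not tested. Sparc had a ratio of 0.848 (0.797 to 0.903), Col18a1 of 0.894 (0.696 to 1.15) and Timp3 of 1.07. The Müller glia clusters differed for Timp3, at 1002, 1474 and 1885 CPM in the cluster of 113 cells with lower UMI counts and at 674, 687 and 604 CPM in the cluster of 487.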

How the data were processed

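The study enriched CD31+ cells from retinas of young, adult and old mice and made 1 droplet library (10x Genomics) per age. The deposited values were raw UMI counts per gene and cell barcode, made by the authors with Cell Ranger 6.1.2 and mm10 per the labels. The 36 members and the wider lists were chosen with earlier results of these data known. Cells with 500 to 6000 genes and 1 to 20% mitochondrial UMIs were kept, doublets called by Scrublet (scanpy 1.11.5) were removed (7 of 1713, 17 of 1974 and 16 of 1713 cells), and 1706, 1957 and 1697 cells with median UMIs of 6356, 5964 and 6296 remained, from 16577026, 19977238 and 17021820 UMIs. Clustering used Seurat 5.3.0 (2000 features, 30 components, resolution 0.5) without the members or wider lists. A cluster name needed 3 fixed markers detected in 20% of cells, thresholds set with earlier results known, and no authors' annotation of cells was used. Unnamed clusters included one of 230 cells with endothelial markers but low UMI counts and an adult cluster of 38 crystallin-rich cells. UMIs were summed per class and library. Class contrasts used edgeR 4.0.16 (TMM, filterByExpr, library as block, 21 sums), and the step was tested on simulated data. CPM carry exact Poisson intervals (scipy 1.17.1). PCR duplicates are collapsed by UMIs, and all intervals cover counting error only. Alternatives were DESeq2 1.42.0, RLE size factors, no filter, each library left out, no block, purer cells, free RNA subtracted, thinning to 2000 UMIs, 1000 genes and 10% as limits, doublets kept and mixed droplets counted as endothelial. Values in every library are given for the 4 members with the largest called differences in each direction of each contrast, for members past 1.5-fold between old and young, and for type IV collagen and laminin chains, nidogens, Hspg2 and Agrn, and up to 4 called genes of each wider list are named.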

Additional observations from a re-analysis of the deposited data

Results flagged for a closer look

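Sparcl1 differed in its direction with age between the vascular classes. Its old-to-young ratio was 1.21 (1.12 to 1.31) in smooth muscle cells and 0.863 (0.829 to 0.898) in endothelial cells, with counting intervals on opposite sides of 1. The difference between the classes was not tested, since each age is 1 library.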

How the results depend on the processing

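For the members with the largest called differences in each contrast, each set against each alternative, 425 pairs kept direction and call and 12 kept direction but lost the call, for Col18a1 and Hmcn1 in smooth muscle cells, Col4a3 and Egflam in neurons and Timp3 in Müller glia. In the other pairs the member failed the filter and lost its call untested: Nid2 in smooth muscle cells with purer cells, thinning and stricter limits, and Lamb1 with thinning against smooth muscle cells and Müller glia. Members outside this set lost further calls, and Fn1 turned direction between neurons and Müller glia without the young library. With no filter on low counts, members called higher in Müller glia numbered 5 against endothelial cells and 7 against pericytes, the additions coming from the 6 members the filter removes. With thinning to 2000 UMIs, 3 members were called higher in smooth muscle cells and 1 higher in neurons, and with cells carrying markers of other classes removed (purer cells) 1 was higher in neurons. With free RNA subtracted, 8 were called higher in Müller glia than in neurons. Between old and young endothelial cells, 1 member was lower with purer cells, 5 with a minimum of 20 UMIs, and 1 was higher and 1 lower without the arterial cluster, an alternative chosen after seeing the data. In pericytes, 1 was higher (Timp3) and 3 lower with purer cells (Col4a1, Col4a5 and, not lower before, Agrn), 1 higher with free RNA subtracted, 1 higher and 2 lower with thinning (Col4a1 and, not lower before, Lama4), 3 lower with stricter limits, and 4 higher with a minimum of 20 UMIs. In Müller glia, 1 was lower with free RNA subtracted, 0 with thinning, 1 with stricter limits, 1 was higher with a minimum of 20 UMIs, and 1 was higher and 1 lower without cells with a Pax2 UMI, also chosen after seeing the data. The cause of these moves was not tested, beyond fewer genes being measured under thinning and stricter limits. Without the Pax2 cells, Fn1 had too few UMIs to be measured. The class contrasts had the library as a block, and with no replicate block the counts of members called did not change, with 8 and 13 for endothelial cells against pericytes. For the ages, no paired analysis was possible because each age has 1 library. In the smallest sum, 307598 UMIs, 3 counts are 9.75 CPM.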

Other observations

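Cells outside the 7 classes carried some of the listed genes at high level. An unnamed cluster of 38 droplets of the adult library, led by the crystallin genes Crygs, Cryaa and Crybb2, had Col4a1 at 2569 CPM (2460 to 2682), Col4a2 at 806 CPM (745 to 870), Col4a4 at 495 CPM (448 to 546), Col4a3 at 415 CPM (372 to 462) and Col4a5 at 186 CPM (158 to 219), all above the values of the 7 classes. Sparc stood there at 4191 CPM (4051 to 4334) and Nid1 at 425 CPM (381 to 472). The cluster is from 1 library.

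The retinal pigment epithelium cluster, with 53 of its 61 cells from the old library, had Timp3 at 2968 CPM (2776 to 3170), Col18a1 at 208 CPM (159 to 266), Col4a4 at 114 CPM (78.8 to 159) and Fbln5 at 80.3 CPM (51.5 to 120). Among bipolar cells, Fn1 was concentrated in the cluster led by Lrp1b, Kcnb2 and Reln, at 161, 154 and 34.4 CPM over the 3 ages. The Müller glia clusters also differed, with Col4a5 at 176 CPM and Timp3 at 1470 CPM in the cluster with lower UMI counts and at 32.4 and 659 CPM in the other.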
